A study of Mus musculus with 9 samples.

Results

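The Dlk1-Dio3 locus is an imprinted region of mouse chromosome 12, and it holds the gene of miR-134, the miRNA that Ant-134 was made to inhibit. The members described here are the 6 rows of the count table named Dlk1, Meg3, Rtl1, Rian, Mirg and Dio3, out of 54532 rows in all, and each name matched 1 row. They were chosen by name, with earlier results of these data known. The comparison asked how the host region of miR-134 was expressed in the hippocampus of N4 Ube3am-/p+ mice, and whether Ant-134 and Scr animals differed there.

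All 9 mice were of the N4 Ube3am-/p+ strain, which carries a mutation of the maternal copy of Ube3a on a background backcrossed to 129Sv/Ev and which serves as a model of Angelman syndrome. Each received a single intracerebroventricular injection of 0.5 nmol of oligonucleotide on postnatal day 21, either Ant-134, a locked nucleic acid antimiR (n = 5), or the scrambled sequence Scr (n = 4). All mice then underwent audiogenic seizure tests on postnatal days 22, 24 and 26, and the ipsilateral hippocampus of each was taken on day 27. The values therefore compare oligonucleotides in mice that all went through seizure tests and lived to day 27. In its seizure tests the study reported lower severity after Ant-134 and a tendency to better survival. Oligonucleotide, seizure burden and survival therefore cannot be told apart in these values. Libraries were made from poly-A RNA of whole tissue. In such tissue, fewer cells of a type and less RNA per cell cannot be told apart. Between 28583298 and 41978113 reads per library were counted on genes, and the floor of 3 counts then equals 0.0709 to 0.107 CPM, which are counts scaled to the library size after TMM normalization. Markers of dentate granule, CA1 and CA3 neurons were detected in every library, with summed levels of 193 to 249, 633 to 760 and 561 to 698 CPM.

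In imprinted genes, only the copy from a given parent is active. In this region the paternal chromosome expresses the protein-coding genes Dlk1, Rtl1 and Dio3, and the maternal chromosome expresses the non-coding RNAs Meg3, Rian and Mirg together with the miRNAs and C/D-box snoRNAs that lie along them. Dlk1 encodes a transmembrane relative of the Notch ligands. Rtl1 derives from a retrotransposon Gag-Pol gene, and Dio3 encodes the type 3 deiodinase, which inactivates thyroid hormone. Meg3 is a nuclear long non-coding RNA, Rian hosts many snoRNAs, and Mirg is the host transcript of a large miRNA cluster.

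The 6 genes span 828 kb in the GENCODE annotation of GRCm38. Dlk1 lies at chr12:109452823-109463336 on the plus strand, followed by Meg3 at chr12:109541001-109571726 on the plus strand. Rtl1 is at chr12:109589193-109600330 and is the only member on the minus strand. Rian at chr12:109603940-109661716, Mirg at chr12:109729764-109749460 and the intronless Dio3 at chr12:110279068-110281097 complete the order. The count table lists 118 rows inside this span, among them 67 miRNA precursors and 23 snoRNAs.

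The precursor of miR-134 is annotated at chr12:109734139-109734209 on the plus strand, inside exon 8 of the 17 exons of the Mirg transcript Mirg-212. Its sequence in RefSeq (GRCm38.p6) is shown first because it is the target of the oligonucleotide, with the 2 mature arms in capitals. The mature 5p strand follows with its seed, bases 2 to 8, in capitals.

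Mir134 hairpin: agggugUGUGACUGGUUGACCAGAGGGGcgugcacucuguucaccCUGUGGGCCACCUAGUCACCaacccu

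miR-134-5p: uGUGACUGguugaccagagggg

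RefSeq lists 113 mature miRNAs of 58 hairpins in the span, with 104 different seeds. The seed of miR-134-5p was held by no other mature miRNA of the locus, and the nearest of the others matched it at 5 of 7 positions. Only 9 seeds were shared, each by 2 mature miRNAs. An example is the seed shared by miR-379-5p, which opens the cluster that contains Mir134, and miR-1193-5p.

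miR-379-5p: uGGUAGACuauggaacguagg

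miR-1193-5p: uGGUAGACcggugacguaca

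A second set of sequences shows how the strands of the locus overlap. The miRNAs Mir431, Mir433, Mir127, Mir434, Mir432 and Mir136 lie on the plus strand inside the exons of Rtl1, opposite to the Rtl1 transcript. Of 13 mature miRNAs within the Rtl1 span, 11 are therefore fully complementary to the 6358-base Rtl1 transcript, and the other 2 are the arms of miR-3071, which lies on the strand of Rtl1. Each miRNA below has its seed in capitals, and the site in Rtl1 has the bases that pair with the seed in capitals.

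miR-127-3p: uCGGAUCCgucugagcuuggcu

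Rtl1 site of miR-127-3p, bases 2642 to 2663 of the transcript: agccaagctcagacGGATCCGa

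miR-136-5p: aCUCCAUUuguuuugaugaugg

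Rtl1 site of miR-136-5p, bases 199 to 220 of the transcript: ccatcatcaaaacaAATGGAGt

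miR-433-3p: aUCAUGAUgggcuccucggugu

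Rtl1 site of miR-433-3p, bases 3749 to 3770 of the transcript: acaccgaggagcccATCATGAt

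The levels of the 6 genes were spread widely. Meg3 had 4829 to 5760 CPM and ranked 2 among all genes by CPM, a scale that does not allow for gene length, and 69 by FPKM. In the deposited FPKM, which are per length and allow genes to be compared, the means over the 9 libraries were 301 ± 15.7 for Meg3, 45.3 ± 2.02 for Rian, 4.89 ± 0.342 for Mirg, 3.03 ± 1.30 for Dio3, 2.18 ± 0.238 for Rtl1 and 1.71 ± 0.688 for Dlk1 (SD, n = 9). Meg3, Rian and Mirg did not overlap with each other in any library. Mirg was also above Dio3 in 9 of 9 libraries, although their ranges over all mice overlapped. Dio3 was above Rtl1 in 7 of 9 and Rtl1 above Dlk1 in 6 of 9, so the order of these neighbours is within the spread between mice. Of the exon bases of Meg3, 8.29% lie in an exon of another row on either strand, against 8.40% for Rtl1, 5.03% for Mirg, 3.42% for Rian and 0% for Dlk1 and Dio3. If reads that overlap 2 rows were left out of the counting, the levels of the first 4 lack those reads. The setting was not given in the sources used here. The non-coding RNAs of the maternal chromosome held the highest 3 places. The rows of the locus took 0.568% to 0.674% of all counts in a library, of which Meg3 took 84.8% to 86.4% and Rian 12.1% to 13.7%.

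**Figure D1:**
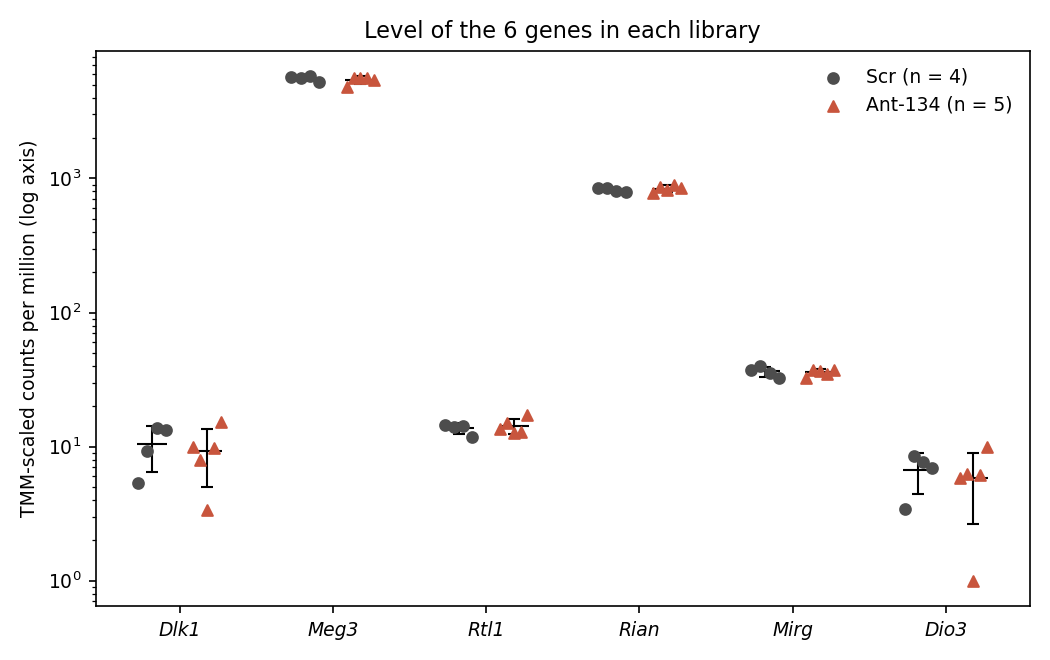
Level of each gene in each library, in CPM on a log axis. Circles are Scr (n = 4), triangles are Ant-134 (n = 5), and the horizontal lines with bars give the mean and SD; Meg3 lies between 4829 and 5760 in all libraries, whereas Dio3 ranges from 0.997 to 9.93.

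Meg3 was measured at 4829, 5653, 5603, 5605 and 5398 CPM in Ant-134 replicates 1 to 5, and at 5712, 5586, 5760 and 5265 CPM in Scr replicates 1 to 4. Ant-134 replicate 1 was the lowest library, and the other 8 lay within the same narrow band. RefSeq gives 2 start sites for Meg3. The 100 bases before the first, chr12:109540896-109540995 of GRCm38.p6 on the plus strand, are shown because they precede the most abundant RNA of the locus, and capitals mark a cyclic AMP response element (TGACGTCA) and the TATA-like stretch TTTATATAAA.

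Meg3 upstream: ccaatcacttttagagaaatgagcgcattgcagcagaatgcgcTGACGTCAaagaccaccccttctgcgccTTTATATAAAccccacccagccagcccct

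The response element starts 57 bases before the Meg3 start. TGACGTCA, read on both strands, was present in 1.79% of 32851 RefSeq mouse promoter windows that reach from 250 bases before to 50 bases after a start, and in 0 of the other 5 windows of the members. TATAAA, also read on both strands, was present in 13.6% of all windows. Among the members it was in the first Meg3 window and in that of Dio3, 31 bases before the start. These matches describe the letters only. The RefSeq window of Mirg, chr12:109734731-109735030, lies inside the GENCODE span of Mirg and downstream of Mir134. The GENCODE start of Mirg was therefore not scanned.

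Rian was measured at 779, 869, 815, 898 and 841 CPM in the Ant-134 replicates and at 853, 843, 805 and 798 CPM in the Scr replicates. Ant-134 animals held both the lowest and the highest value, so the groups overlapped over the whole Scr range. Mirg, the host of the miR-134 precursor, was measured at 32.4, 37.5, 36.8, 34.6 and 37.3 CPM after Ant-134 and at 37.5, 40.1, 35.1 and 32.6 CPM after Scr. Its highest library was Scr replicate 2 and its lowest Ant-134 replicate 1. As a share of Meg3, the CPM of Rian was 13.98% to 16.1% and that of Mirg 0.610% to 0.719% in the 9 libraries. These shares had coefficients of variation of 4.50% and 5.49%, beside 4.53% and 7.06% for the levels of Rian and Mirg themselves.

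Rtl1 was measured at 13.6, 14.9, 12.7, 12.9 and 17.1 CPM in the Ant-134 replicates and at 14.5, 14.02, 14.3 and 11.9 CPM in the Scr replicates. Ant-134 replicate 5 was the highest and Scr replicate 4 the lowest. The strand setting of the counting was not given in the sources used here, so reads of RNA antisense to Rtl1 cannot be told apart from Rtl1 reads.

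Dlk1 was measured at 9.96, 7.93, 3.38, 9.69 and 15.3 CPM in the Ant-134 replicates, from 327, 305, 95, 296 and 463 counts. In the Scr replicates it was at 5.39, 9.27, 13.9 and 13.2 CPM, from 172, 392, 473 and 451 counts. Dio3 was at 5.85, 6.21, 0.997, 6.19 and 9.93 CPM after Ant-134, from 192, 239, 28, 189 and 300 counts. After Scr it was at 3.45, 8.56, 7.74 and 6.91 CPM, from 110, 362, 264 and 236 counts. Both genes were lowest in Ant-134 replicate 3, second lowest in Scr replicate 1 and highest in Ant-134 replicate 5, so low and high libraries occurred in each group. The highest library exceeded the lowest 4.53 times for Dlk1 and 9.96 times for Dio3, compared with 1.19 times for Meg3.

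**Figure D2:**
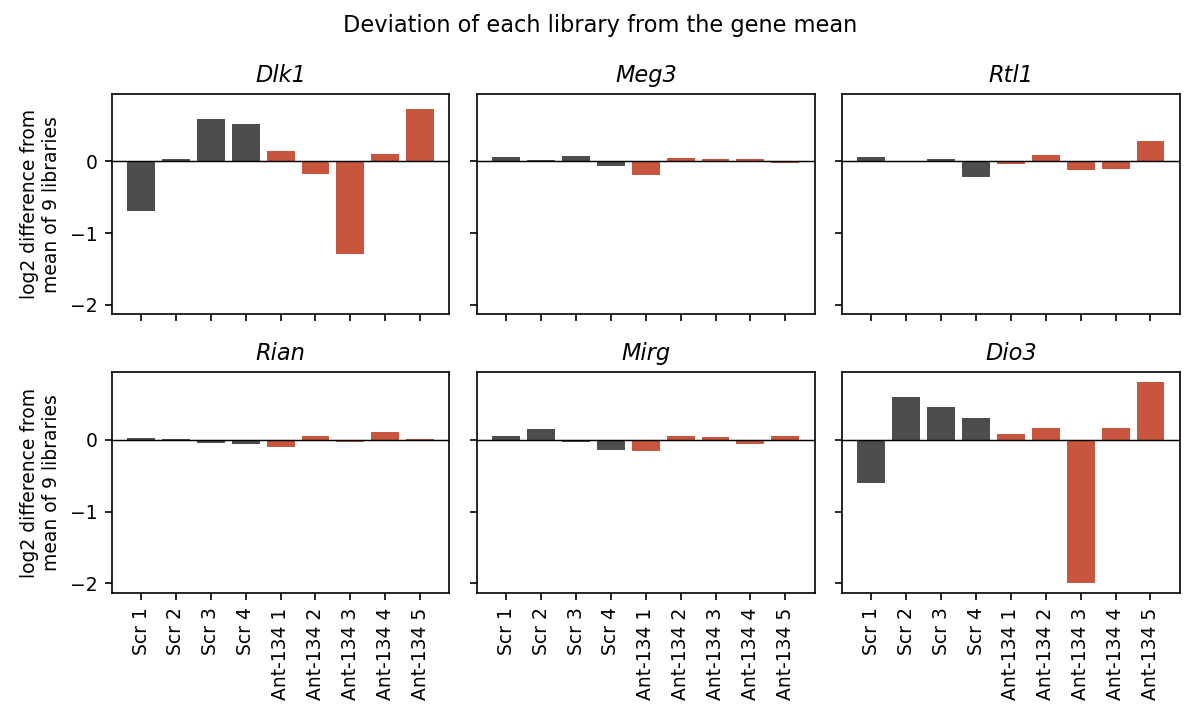
Difference of each library from the mean of the 9 libraries of that gene, in log2(CPM + 0.5), for Scr (grey) and Ant-134 (red) replicates. The bars of Dlk1 and Dio3 point down in Ant-134 replicate 3 and Scr replicate 1 and up in Ant-134 replicate 5, whereas those of Meg3, Rian, Mirg and Rtl1 stay close to 0.

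The coefficient of variation over the 9 libraries put the members in 2 sets. It was 4.53% for Rian, 5.31% for Meg3, 7.06% for Mirg and 10.8% for Rtl1, but 40.1% for Dlk1 and 43.1% for Dio3. Of the 1892 tested genes within 0.5 log2 units of the level of Dlk1, 98.4% varied as much as Dlk1 or less, with a median of 10.3%. For Dio3 this share was 97.3% of 1673 genes, with a median of 12.7%.

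Ant-134 and Scr were compared with edgeR's quasi-likelihood test over all 19782 genes that passed the filter on low counts, and the study's threshold, an unadjusted p value below 0.05, defined a call. Of the 6 genes, 0 were higher and 0 lower, whereas 4.18% of all tested genes were called, 1.49% higher and 2.69% lower in Ant-134, and 0 genes passed after Benjamini-Hochberg adjustment. The number that passed it was 16 with DESeq2, 14 without the filter, 2 with a replicate block and 17 without Ant-134 replicate 1, and 0 or 1 under the other alternatives, with 0 members among them under any. All 6 members passed the filter. In 0 of the 6 did the groups separate without overlap, which occurred in 1.54% of the tested genes.

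For the maternal RNAs the intervals were narrow. The log2 fold change of Meg3 was -0.043 ± 0.049 (SE), with a 95% interval from 0.903-fold to 1.04-fold. That of Rian was 0.027 ± 0.047, from 0.951-fold to 1.09-fold. Mirg differed by -0.025 ± 0.067, from 0.890-fold to 1.09-fold. The narrowest of these intervals were those of Meg3 and Rian, the most deeply counted members.

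Among the paternal genes, Rtl1 had a log2 fold change of 0.061 ± 0.097, with an interval from 0.904-fold to 1.20-fold. Dlk1 differed by -0.17 ± 0.44 and Dio3 by -0.19 ± 0.54, and their intervals were wide, from 0.439-fold to 1.80-fold and from 0.367-fold to 2.09-fold. A change of Dio3 by 2 times in either direction therefore lay within its interval. Without Ant-134 replicate 3 the estimates of Dlk1 and Dio3 changed sign, to 0.036 and 0.072. The exact permutation test of each gene, two-sided and with 126 possible assignments, gave p = 0.690 for Dlk1, 0.532 for Meg3, 0.627 for Rtl1, 0.595 for Rian, 0.770 for Mirg and 0.675 for Dio3, and the adjusted p in edgeR was 0.998 for each.

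**Figure D3:**
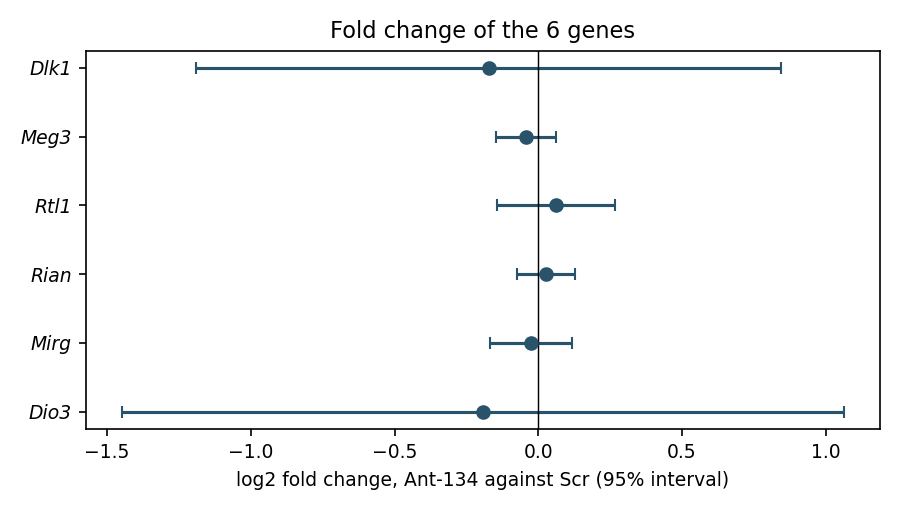
Log2 fold change of Ant-134 (n = 5) against Scr (n = 4) for each gene, with its 95% interval from edgeR. All 6 intervals include 0, and those of Dlk1 and Dio3 are the widest.

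Sites that pair with the miR-134 seed were counted in the longest GENCODE transcript of each member, as CAGTCAC or AGTCACA on the transcript strand. Each was set beside all transcripts within 10% of its length. That of Meg3 held 3, where similar transcripts had a median of 2 and 87.6% of them had at least 1. Those of Rian and Mirg held 1 each, and at least 1 was held by 67.3% and 41.8% of transcripts of similar length. Those of Dlk1, Rtl1 and Dio3 held 0, where 48.0%, 57.7% and 24.7% of similar transcripts had a site.

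Across the 9 libraries, the levels of Dlk1 and Dio3 rose and fell together, although they lie at opposite ends of the locus. Pearson's r of log2(CPM + 0.5) was 0.92 (two-sided exact permutation p = 9.9e-04, adjusted p = 0.0149 over 15 pairs). Spearman's rho was 0.73 (exact p = 0.0311, adjusted p = 0.467), and r was 0.92 with each group centred on its own mean. Without Ant-134 replicate 3 and Scr replicate 1, the libraries farthest from the median, r was 0.61, so the strength of the relation rests on these libraries (exact p = 0.150, adjusted p = 0.932). The pair also missed the threshold after adjustment when only 1 library was left out, with adjusted p values of the exact test of 0.150 without Ant-134 replicate 3, 0.134 without Scr replicate 1 and 0.0666 without Ant-134 replicate 5. Of the 19781 other tested genes, 19 had a higher r with Dlk1 than Dio3 did.

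**Figure D4:**
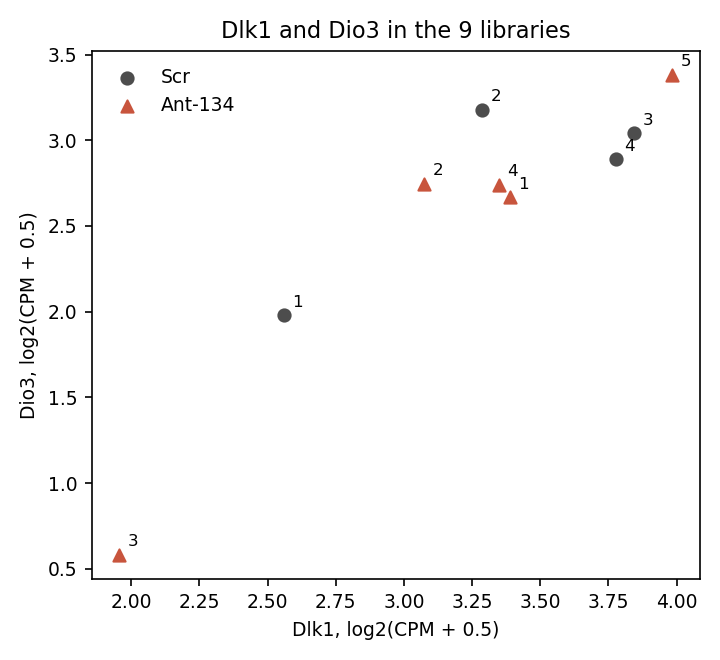
Dio3 against Dlk1 in each library, both in log2(CPM + 0.5), with the replicate number beside each point. Ant-134 replicate 3 and Scr replicate 1 lie at the lower left, and the other 7 libraries lie in the upper right, with r = 0.61 among them.

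No other pair passed after adjustment. Among the maternal RNAs, r was 0.65 for Meg3 and Mirg (exact p = 0.0540, adjusted p = 0.394; rho = 0.42, exact p = 0.270) and 0.61 for Meg3 and Rian (exact p = 0.0788, adjusted p = 0.394; rho = 0.53, exact p = 0.148). Both turned negative, to -0.27 and -0.16, without Ant-134 replicate 1 and Scr replicate 4, the libraries farthest from the median of Meg3, so they rest on these libraries. Rian and Mirg had r = 0.51 (exact p = 0.159, adjusted p = 0.476; rho = 0.60, exact p = 0.0968), and 0.74 without Ant-134 replicates 1 and 4. Dlk1 and Dio3 had r between -0.32 and 0.10 with Meg3, Rian and Mirg. Rtl1 had r = 0.27 with Dlk1 and 0.40 with Dio3, and its highest r among the members was 0.52 with Mirg.

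The genes outside the locus with the pattern most like each member were found by Pearson's r over the 9 libraries among 16015 genes with a mean of at least 1 CPM, and the values are given without a test since they are the highest of many. For Dlk1 they were Rara, a retinoic acid receptor (0.97), Ppfibp1 (0.96) and Tnfaip3, an inhibitor of NF-kB signalling (0.95). For Dio3 they were B3gntl1 (0.97), the cyclic GMP phosphodiesterase Pde9a (0.95) and Abca8a (0.95). Meg3 was most like the circadian gene Per3 (0.93), Tbc1d10a (0.92) and the postsynaptic scaffold gene Dlgap3 (0.91). Mirg was most like Snrpc (0.96), Clasrp (0.95) and Srsf2 (0.93), of which Snrpc and Srsf2 encode splicing proteins. For Rian the genes were Dusp23 (0.95), Ccdc66 (0.93) and Clec11a (0.92), and for Rtl1 they were Bckdk (0.98), Ftl1 (0.93) and F10 (0.93).

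A list of 33 imprinted genes from other chromosomes was compared with the members. Of these, 7 had r above 0.7 with Dlk1, namely Blcap, Grb10, Magel2, Ndn, Nnat, Usp29 and Zdbf2, or 21.2% against 3.14% of all tested genes. With Dio3, 8 had r above 0.7, namely Blcap, Magel2, Ndn, Nnat, Peg10, Plagl1, Zdbf2 and Zim1, or 24.2% against 3.33%. With Meg3, Rian, Mirg and Rtl1 the numbers were 1, 0, 0 and 2. These shares are a description of the same 9 libraries, in which Ant-134 replicate 3 was the lowest for both Dlk1 and Dio3. Magel2, a gene of the Prader-Willi region, ranged from 2.03 to 9.10 CPM, and Nnat, a small membrane protein of developing neurons, from 293 to 469.7 CPM. Nnat is also 1 of the 5 CA3 markers and made up 52.3% to 69.8% of their sum. Of the other CA3 markers, Cpne4 and Grik4 went the other way, with r of -0.81 and -0.74 with Dlk1.

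The marker lists of other cell types were read beside Dlk1 and Dio3. The CA3 sum was lowest in the 2 libraries lowest in Dlk1 and Dio3, at 561 CPM in Ant-134 replicate 3 and 578 CPM in Scr replicate 1, against 602 to 698 CPM in the other 7. Without Nnat it was 268 and 234 CPM there, and Ant-134 replicate 3 was then the highest of the 9 libraries. In Scr replicate 1 the sums of 5 astrocyte and 5 microglia markers were the highest, at 2555 and 322 CPM, against 1872 to 2416 and 229 to 284 CPM in the 7 libraries, and Ant-134 replicate 3 was at 2136 and 259 CPM. The summed level of 5 thalamus markers was 164 CPM in Ant-134 replicate 3 and 97.6 to 126 CPM in the other 8 libraries, and none of the 5 was at 0 in any library. The summed level of 5 meningeal fibroblast markers was lowest in the same library, at 81.8 CPM, against 105 to 143 in the other Ant-134 and 124 to 165 in the Scr libraries. The 5 choroid plexus markers ranged from 66.8 to 2538 CPM in Ant-134 and from 77.9 to 2001 CPM in Scr libraries. Summed neuron markers reached 4706 CPM in Ant-134 replicate 3, above the 4152 to 4576 CPM of the 7 libraries and the 4215 CPM of Scr replicate 1. The summed nuclear long non-coding RNAs, a list of RNA class, were highest in the 2 libraries low in Dlk1 and Dio3, at 6478 and 6682 CPM against 5273 to 6329. The 6 interneuron markers summed to 639 CPM in Ant-134 replicate 3 and 641 CPM in Scr replicate 1, against 637 to 762 CPM in the other 7. Their mean log2 level had r = 0.62 with Dlk1 and 0.43 with Dio3. Among them r with Dlk1 ran from -0.62 for Pvalb to 0.88 for Sst. The part of tissue composition in the spread of Dlk1 and Dio3 was not tested.

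The other rows of the locus include the antisense neighbour of Dio3, several long non-coding RNAs and the small RNA precursors. Beside the members, 20 of them passed the filter. Only Mir3070b, a miRNA precursor row between Meg3 and Rtl1, was called, with 23, 18, 17, 12 and 14 counts in the Ant-134 and 33, 28, 36 and 19 in the Scr replicates (log2 fold change -0.64, exact permutation p = 0.0635, adjusted p = 0.998 in edgeR). This is 3.85% of the 26 tested rows, lower in Ant-134, beside 2.69% of all tested genes. These groups overlapped. Without any 1 of Ant-134 replicates 2, 4 and 5, and with a replicate block, 0 rows were called, and without Scr replicate 4 there were 2. Without Scr replicate 1 the only called row was a higher one, so Mir3070b was not called there. With limma on log2(FPKM + 1) 7 of 70 rows were called, 3 higher and 4 lower, or 10% beside 4.58% of all genes. The others had log2 fold changes from -0.85 for Mir493 (2 to 14 counts, exact permutation p = 0.0794) to 0.66 for Mir376c (6 to 20 counts, exact permutation p = 0.0556). Mir329, which failed the filter, had 2, 5, 0, 2 and 0 counts in the Ant-134 and 7, 7, 12 and 5 in the Scr replicates. Its exact permutation p of 0.0159, not adjusted, was the smallest of the 118 rows, with counts near the floor.

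Dio3os, which starts near Dio3 and runs in the opposite direction, had 17, 32, 5, 15 and 38 counts in the Ant-134 and 4, 30, 27 and 30 in the Scr replicates. Its lowest libraries were Scr replicate 1 and Ant-134 replicate 3, and its highest was Ant-134 replicate 5, as for Dio3 and Dlk1. Its log2 fold change was 0.065 (exact permutation p = 0.929). The long non-coding RNA with the smallest p value, B830012L14Rik, had 28 to 68 counts (log2 fold change -0.44, exact permutation p = 0.167).

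The assay counted long poly-A RNA and did not measure mature miRNAs. Precursor rows were placed by the exons of rows that are not miRNA precursors, leaving out their overlaps with each other. Of the 41 precursor rows with counts in no such exon, 8 lie inside the span of a member and 33 outside. The RNA their reads came from was not tested. Mir134 had 0 counts in all 9 libraries. This 0 is shared by each of the 14 precursor rows that lie wholly inside an exon of a row that is not a precursor. Of these 14, 8 are on the same strand, including those of Mirg, and 6 on the strand opposite to Rtl1. Of the 53 other precursor rows only 8 were at 0 throughout. Of these, Mir668 lies partly in an exon of Mirg. The other 7, Mir3544, Mir299b, Mir380, Mir376a, Mir539, Mir409 and Gm24321, each overlap another precursor row, as do some rows with counts such as Mir337. Of all 67 rows, 24 had at least 10 counts in a library. Mir134 lies wholly within an exon of Mirg, and its count of 0 gives no measure of miR-134. Whether reads over such stretches were left out because they overlap 2 rows was not tested.

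**Figure D5:**
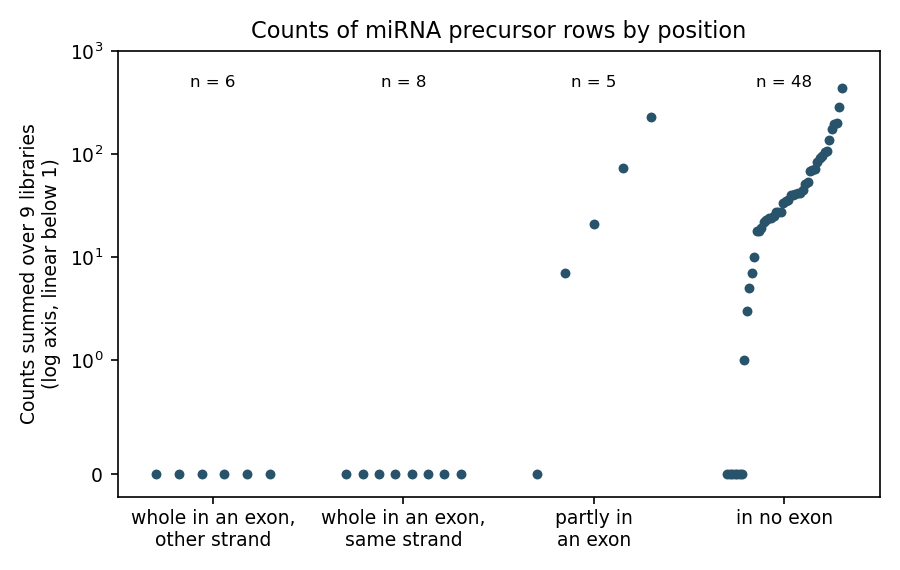
Counts of the 67 miRNA precursor rows of the locus, summed over the 9 libraries on a log axis that is linear below 1. Positions are relative to the GENCODE exons of rows that are not miRNA precursors. All 14 rows wholly inside such an exon are at 0, on either strand. Of the 48 rows in no such exon, 41 have counts. The other 7 each overlap another precursor row, an overlap not used for the placing.

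Genes that act with the members were read from lists of their pathways, with a call at an unadjusted edgeR p below 0.05. Their adjusted p values were all 0.952 or higher in this fit. The exact permutation p, which tests each gene by itself, is given beside the edgeR calls. For Dio3, 20 of 21 genes of thyroid hormone transport, activation and response were tested, and 0 were higher and 2 lower after Ant-134, or 10% against 2.69% lower among all tested genes. The transporter Slc16a10 was at 4.33 ± 0.492 (n = 5) and 5.51 ± 0.827 CPM (n = 4; log2 fold change -0.35, exact permutation p = 0.0397), and Slco1c1, which carries thyroxine into the brain, at 58.8 ± 3.67 and 66.1 ± 8.19 CPM (-0.17, exact p = 0.135). The number called in this list ran from 0 to 3 over 19 alternatives. Slco1c1 lost its call without any 1 of Ant-134 replicates 2, 3 and 5 and Scr replicates 1, 2 and 3, Slc16a10 without any 1 of Scr replicates 1, 2 and 4, and both with limma on FPKM. Dio2, which activates the hormone, was at 43.2 ± 3.87 and 41.9 ± 7.35 CPM (exact permutation p = 0.683), and the receptor Thra at 903 ± 30.9 and 896 ± 37.4 CPM (exact p = 0.627). The list's median log2 fold change was 0.0024, beside 0.0026 for all tested genes. Of 5 endothelium markers, 5 had negative log2 fold changes (median -0.10) and 0 were called, with summed levels of 172 to 213 CPM in Ant-134 and 189 to 238 CPM in Scr libraries. Meningeal and microglia markers were also lower, with the values given for the Notch list, and the part of these markers in the transporter values was not tested.

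For Dlk1, 22 genes of the Notch pathway were tested, of which 0 were higher and 3 lower, or 13.6% against 2.69% lower among all tested genes. These were the receptors Notch1 (29.3 ± 2.36 and 33.9 ± 2.92 CPM; log2 fold change -0.21, exact permutation p = 0.00794, the smallest that 5 and 4 mice allow), Notch2 (-0.21, exact p = 0.0397) and Notch3 (-0.30, exact p = 0.0476), all with an adjusted p of 0.998 in edgeR. The median of the list was -0.043. In the same libraries 4 of 5 meningeal fibroblast markers (median -0.43) and 2 of 5 microglia markers (median -0.19) were also lower, with summed levels of 81.8 to 143 and 229 to 281 CPM in Ant-134 and 124 to 165 and 279 to 322 CPM in Scr libraries. Their part in the Notch values was not tested.

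Of the 33 imprinted genes outside the locus, 0 were higher and only Igf2, a growth factor, was lower, at 1.26 ± 0.346 after Ant-134 and 2.30 ± 0.715 CPM after Scr (log2 fold change -0.87, exact permutation p = 0.0317, adjusted p = 0.987 in edgeR), with a list median of 0.0057. This is 3.03% of the list, beside 2.69% lower among all tested genes. Sgce, a sarcoglycan gene, was at 23.4 ± 1.44 and 21.2 ± 1.44 CPM (0.14, exact permutation p = 0.0794). It was called as higher under 6 of 19 alternatives, namely with DESeq2, its size factors or a replicate block and without Ant-134 replicate 3, Ant-134 replicate 5 or Scr replicate 2. Igf2 moved in the direction of the meningeal markers, and their part in it was not tested. Of 20 regulators of imprints 0 were called, and 1 was called under 5 of 19 alternatives. The smallest edgeR p values in that list were those of Tet2 (-0.14, exact permutation p = 0.167), which oxidises methylated cytosine, and of the DNA methyltransferase Dnmt3a (-0.097, exact p = 0.151). Tet2 was called without Scr replicate 4, with a replicate block and without a filter, and Dnmt3a without Ant-134 replicate 2 or Scr replicate 2.

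Among 10 nuclear long non-coding RNAs, the class of Meg3, Pantr1 was higher (61.8 ± 5.90 and 52.4 ± 5.11 CPM; log2 fold change 0.24, exact permutation p = 0.0397) and 0 were lower, where 1.49% of all tested genes were higher. Of 6 neuron markers, 2 were also higher, Snap25 (0.12, exact permutation p = 0.0952) and Eno2 (0.098, exact p = 0.0476), with sums of 4209 to 4706 CPM in Ant-134 and 4152 to 4418 CPM in Scr libraries. So were 1 of 5 dentate granule markers (Dsp, 0.18, exact p = 0.0635) and 1 of 5 thalamus markers (Lef1, 0.44, exact p = 0.0952), and the part of these markers in the value of Pantr1 was not tested. Among 12 relatives of Rtl1 that derive from retrotransposon Gag genes, only Rtl9 was called, lower at 1.28 ± 0.203 and 1.71 ± 0.107 CPM (-0.42, exact permutation p = 0.0238), or 8.33% against 2.69%. The number called in this list ran from 0 to 3 over the alternatives, with 3 without Ant-134 replicate 4, and Rtl9 lost its call without any 1 of Ant-134 replicates 1, 3 and 5 and Scr replicates 1 and 2. In the list of long non-coding RNAs 2 were called under 7 of 19 alternatives, where the other was Gm26917, at 115 ± 41.1 and 177 ± 27.3 CPM (-0.62, exact permutation p = 0.0556). These were DESeq2, the fit without robust estimation, the covariate of Y-linked genes, the 3 limma fits and the fit without Ant-134 replicate 1. The medians were -0.023 and 0.071. Within 500 kb on either side of the locus, 14 of 22 rows were tested and 0 were called, where the smallest edgeR p values were those of the chaperone gene Hsp90aa1 (0.092, exact permutation p = 0.119) and of a lincRNA row of Gm35558 (-0.49, exact p = 0.0397). Another row of that name, of biotype TEC, went the other way (0.20, exact p = 0.0397). Hsp90aa1 was called with a replicate block and without Scr replicate 4, and the lincRNA row of Gm35558 with limma on FPKM.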

How the data were processed

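The authors aligned paired-end reads of poly-A RNA to GRCm38 (mm10) with HISAT2 2.0.5, counted them per gene with featureCounts 1.5.0-p3 and deposited raw counts for 54532 genes. They also deposited FPKM, which equalled counts per length and library total times a constant of 0.978 to 1.007. Strandedness and annotation release were not given in the sources used here; all 118 rows of the locus have the same position in GENCODE M21. Counting error alone is covered by the floor of 3 counts.

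Counts were tested with edgeR 4.0.16 in R 4.3.3 (filterByExpr, minimum count 10, TMM, robust quasi-likelihood, Benjamini-Hochberg over 19782 genes), after a test on simulated data. Correlations used log2(CPM + 0.5) and exact permutation. Alternatives were DESeq2 1.42.0, other filters and scalings, a replicate block, a covariate of Y-linked genes, limma 3.58.1 on log2(FPKM + 1) or log2(FPKM + 0.1), and leaving out each library. Relative to the mean of the 9 libraries, Y-linked genes were at -4.09 and -3.69 log2 units in Ant-134 replicates 1 and 4 and -4.11 in Scr replicate 3. They were at 1.89 to 2.06 in the others, so both sexes were probably present. The study did not record the sex ratio for molecular work. Named genes were the members, tested rows of the locus, the 3 genes most like each member, and in each pathway list and the flanks those with unadjusted p below 0.05 or else the 2 smallest. Dio2, Thra, Magel2, Nnat, Cpne4, Grik4, Sgce, Gm26917, Mir329, the TEC row of Gm35558, the lists of genes with r above 0.7, and the marker genes and sums fall outside it, picked once their values were known. Members and lists were chosen with earlier results of these data known. Promoter and miRNA sequences are from RefSeq GRCm38.p6, which held windows for 5 of the 6 members and names 61 of the 67 precursor rows.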

Additional observations from a re-analysis of the deposited data

Results flagged for a closer look

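Dixon's test, the gap to the nearest library over the range of the group, was applied to 24 sets of member values (6 genes, 2 groups, CPM and log2 CPM). In 2 of them a library lay beyond the cut-off of 0.71 for 5 libraries or 0.829 for 4, where chance gives about 1 in 20. Dio3 was far below the other Ant-134 libraries in Ant-134 replicate 3 on the log2 scale, with a gap of 0.745, against 0.544 in CPM. Rtl1 was lowest in Scr replicate 4, with a gap of 0.8291 on the log2 scale, barely above the cut-off, and 0.815 in CPM, below it. Its Scr values spanned only 11.9 to 14.5 CPM.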

How the results depend on the processing

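None of the 6 members was called under any of 19 alternatives, where the smallest unadjusted p for a member was 0.207 and the smallest adjusted p was 0.856, and 107 of 114 fold changes kept their direction. The replicate numbers did not pair the mice, since the deviations of same-numbered libraries had correlations from -0.15 to 0.053, and with the number as a replicate block Dlk1 was at -0.42, Dio3 at -0.55, Rtl1 at -0.0098, Dio3os at -0.24, the locus had 0 called rows, the imprinted list had 2 called genes and 808 of all genes were called. Leaving out each library in turn gave -0.069 (without Scr replicate 4) to -0.0043 (without Ant-134 replicate 1) for Meg3, 0.00059 (without Ant-134 replicate 4) to 0.053 (without Ant-134 replicate 1) for Rian, -0.43 to 0.036 for Dlk1, -0.011 to 0.097 for Rtl1, -0.073 to 0.027 for Mirg, -0.46 to 0.072 for Dio3 and -0.29 to 0.29 for Dio3os. Of all genes, 1775 were called without a filter and 1467 by limma on all FPKM above 0, against 827, where more low genes were tested. In the locus, 3 of 80 rows were called without a filter (3.75%, beside 4.74% of all genes), 7 and 6 of 70 by limma on log2(FPKM + 1) and log2(FPKM + 0.1) (10% and 8.57%, beside 4.58% and 4.65%) and 6 of 80 on all FPKM above 0 (7.50%, beside 3.92%), and 0 to 2 with a library left out. In the imprinted list, DESeq2 and its size factors called 2 genes each, and leaving out a library gave 1 to 3. 1 pair of members passed adjustment, and 0 to 1 did when each library was left out, with 0 without Ant-134 replicate 3, Ant-134 replicate 5 or Scr replicate 1, and 0 without the 2 farthest libraries, which leaves fewer samples. In the latter setting r was -0.49 for Meg3 and Rtl1, -0.16 for Meg3 and Rian, -0.27 for Meg3 and Mirg and 0.085 for Mirg and Dio3, which was at 0.042 with raw library totals. Leaving out 1 library gave r from -0.068 to 0.57 for Dlk1 and Rtl1, -0.14 to 0.17 for Rian and Dio3 and -0.27 to 0.14 for Mirg and Dio3. The call was lost under 10 alternatives for Slco1c1, 9 for Rtl9, 7 for Mir3070b and 6 for Slc16a10, 1 for Notch3 (with the replicate block), and under 0 for Igf2, Notch1 and Notch2. The cause was not tested.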
